A study of Mus musculus with 12 samples.

Results

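The mRNAs of 5 genes of cellular iron handling were followed in NIH-3T3 cells, an immortalised line of mouse fibroblasts, across a time course of RNA labelling. They are Tfrc (the transferrin receptor), Fth1 and Ftl1 (the heavy and light chains of ferritin), and Ireb2 and Aco1 (the iron regulatory proteins IRP2 and IRP1). They were chosen by gene symbol, and make up 5 of the 17419 genes of the deposited table. Wild-type cells were given 4-thiouridine (4sU) at 800 µM for 15, 30, 60, 90 or 120 min, or no 4sU, and the 6 groups had 2 replicates each, A and B. 4sU is a uridine analogue that is built into RNA made while it is present. Total RNA was treated with iodoacetamide, which makes the sequencer read C at the positions of 4sU (SLAM-seq). From those conversions the authors estimated the new-to-total ratio (NTR), the fraction of each gene's RNA synthesised during labelling. The labels name no change of iron supply in any group. The labels do not say that replicates came from separate cultures, so errors and p-values measure the spread between these libraries only.

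Animal cells take up iron by binding transferrin, its carrier in serum, to the transferrin receptor at the cell surface, and store the surplus inside shells of ferritin. IRP1 and IRP2 are RNA-binding proteins that attach to a hairpin called the iron-responsive element (IRE) when iron is scarce. On the 3′ untranslated region (UTR) of Tfrc mRNA they protect the message from decay, and on the 5′ UTR of the ferritin mRNAs they block translation. IRP1 is also the cytosolic aconitase when it carries an iron-sulphur cluster, whereas IRP2 is controlled mainly by degradation of the protein, through the ubiquitin ligase subunit FBXL5. Tfrc is therefore known for control at the level of mRNA stability, and ferritin for control at the level of translation.

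Tfrc mRNA held 4 IRE-type hairpins in its 3′ UTR, and Fth1 and Ftl1 held 1 each in the 5′ UTR. They are shown because the position of the hairpin separates the mRNA with regulated decay from the mRNAs with regulated translation. The search was for an unpaired C, a 5-base stem and the loop CAGTGN, on the sense strand of the longest protein-coding transcript per gene in GENCODE M21 (GRCm38). The stem could pair by Watson-Crick or G-U pairs. The sequences are written 5′ to 3′ as DNA, with the unpaired C and the 6-base loop in capitals.
Tfrc, 3′ UTR, chr16:32631220-32631246, plus strand: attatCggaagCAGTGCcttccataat
Tfrc, 3′ UTR, chr16:32631599-32631625, plus strand: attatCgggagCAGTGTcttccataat
Tfrc, 3′ UTR, chr16:32631664-32631690, plus strand: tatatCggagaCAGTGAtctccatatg
Tfrc, 3′ UTR, chr16:32631711-32631737, plus strand: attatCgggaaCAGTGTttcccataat
Fth1, 5′ UTR, chr19:9982733-9982759, plus strand: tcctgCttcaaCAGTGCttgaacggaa
Ftl1, 5′ UTR, chr7:45459780-45459806, minus strand: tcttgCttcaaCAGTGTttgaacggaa

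The 4 Tfrc hairpins were all different in sequence and lay within 518 bases of its 2461-base 3′ UTR. Their lower stems, outside the unpaired C, had 5 of 5 bases paired, and those of both ferritin hairpins had 4 of 5. The motif was rare: it was found in 20 of 20702 5′ UTRs (0.097%) and in 118 of 21684 3′ UTRs (0.544%). Tfrc was the 1 mRNA with 2 or more in its 3′ UTR. No match was found in Ireb2 or Aco1. A match is a description of sequence, and hairpins with another loop or a mismatched stem would be missed.

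**Figure D1:**
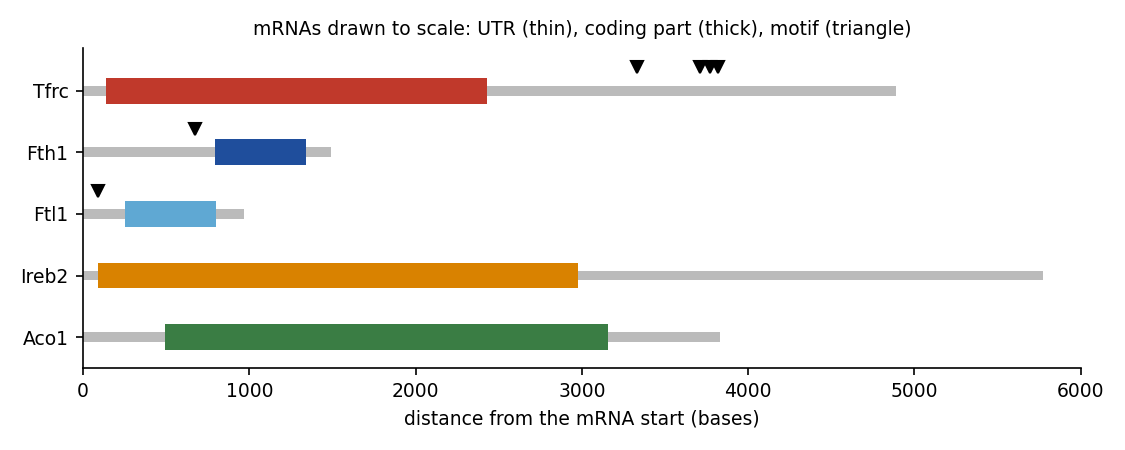
Map of the 5 mRNAs, to scale in bases from the transcript start, with untranslated and coding parts and each match of the hairpin motif marked. The 4 Tfrc matches lie in the 3′ UTR, the Fth1 and Ftl1 matches in the 5′ UTR, and Ireb2 and Aco1 have none.

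In GENCODE M21 (GRCm38) Tfrc lies at chr16:32608920-32632794, Fth1 at chr19:9980598-9985098, Ireb2 at chr9:54863789-54912530 and Aco1 at chr4:40143081-40198338, all on the plus strand, and Ftl1 at chr7:45457944-45459884 on the minus strand. All 5 genes passed the filter on low counts, and none overlaps another gene of the table in GENCODE M21. Library totals lay between 9917026 and 13739380 reads. Counts per library ranged from 4796 to 7877 for Tfrc, from 15384.5 to 24546.5 for Fth1, from 30326.8 to 47113.2 for Ftl1, from 630.5 to 1574 for Ireb2 and from 761 to 1089 for Aco1. The table also holds a copy of Ftl1, Ftl1-ps1 on chromosome 13, which took between 5.70% and 6.71% of the reads of both, so the split between them is uncertain. All 8 fibroblast markers reached 1 CPM (the count relative to the TMM-adjusted library total, on the usual CPM scale), with a summed level of 15973 to 19529 CPM. Cdh1 of epithelia was at most 0.388 CPM, and the leukocyte, endothelial and erythroid pairs summed to at most 6.88, 1.70 and 2.20 CPM. The unlabelled replicates stood apart from each other: A minus B, in log2 CPM, was -0.32 for Tfrc, 0.29 for Fth1, 0.19 for Ftl1, -0.34 for Ireb2 and -0.04 for Aco1. Comparisons of 120 with 15 min do not take their fold change from these libraries, and were therefore set beside those with the unlabelled group.

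Per kb of transcript, the ferritin mRNAs were far above the receptor and the regulators. The median over 12 libraries was 3179 CPM per kb for Ftl1 (3040 to 3650), 765 for Fth1 (677 to 893), 111 for Tfrc (92.7 to 119), 20.2 for Aco1 (19.5 to 20.9) and 16.4 for Ireb2 (10.1 to 19.5). Of these neighbours in order, only Aco1 and Ireb2 came close, with ranges that overlapped near 19.5 CPM per kb. The deposited length of Fth1 is that of a transcript with a retained intron, and with its longest protein-coding transcript its mean was 1070 CPM per kb. The light chain stood 4.18 ± 0.120-fold (SD, n = 2) above the heavy chain per kb at 15 min and 4.16 ± 0.0950-fold at 120 min. These ratios use the deposited Fth1 length of 2062 bases, and would be lower with the 1494 bases of its protein-coding transcript.

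Tfrc, the receptor that brings transferrin-bound iron into the cell, had an NTR below that of most genes from 60 min onward. Its NTR was 0.92% (A) and 0.71% (B) at 15 min, 3.86% (A) and 4.25% (B) at 30 min, 8.10% (A) and 8.83% (B) at 60 min, 13.16% (A) and 11.73% (B) at 90 min, and 13.98% (A) and 13.48% (B) at 120 min. The deposited 90% intervals at 120 min were 13.13% to 14.89% in A and 12.67% to 14.34% in B. Within each replicate the intervals of successive durations were separate up to 90 min, while at 120 min replicate A's interval overlapped that of 90 min replicate A. Among the 9065 genes that averaged 100 or more counts, Tfrc stood on average at percentile 44.1 of NTR at 15 min (36.3 in A and 51.8 in B), percentile 37.7 at 30 min, percentile 20.9 at 60 min, percentile 18.9 at 90 min and percentile 11.1 at 120 min. The median gene reached 35.4% at 120 min, against 13.7% for Tfrc.

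Fth1, the ferritin chain with the ferroxidase site that oxidises iron for storage, had a higher NTR than Tfrc in all 10 labelled libraries. Its values were 1.5% (A) and 1.19% (B) at 15 min, 4.87% (A) and 4.98% (B) at 30 min, 9.51% (A) and 9.99% (B) at 60 min, 13.66% (A) and 13.02% (B) at 90 min, and 19.05% (A) and 18.18% (B) at 120 min. The gap to Tfrc (Tfrc minus Fth1) lay between -1.41 and -0.48 percentage points up to 90 min and was -5.07 (A) and -4.70 (B) at 120 min. The 90% intervals of the 2 genes did not overlap in 3 of 10 libraries, both 120 min libraries among them. The mean of Tfrc minus Fth1 was -1.69 ± 1.72 percentage points (SD over 10 libraries), with an exact two-sided sign-flip permutation p of 0.00195 and 0.00326 after Benjamini-Hochberg adjustment over 10 pairs of genes. The former is the smallest p that 10 libraries can give. This SD, like the later ones for differences over the 10 labelled libraries, spans all durations. It therefore includes the change of the difference with labelling time.

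Ftl1, the ferritin chain that helps form the iron core, lay below Fth1 in every labelled library. Its NTR was 1.49% (A) and 0.83% (B) at 15 min, 4.49% (A) and 4.16% (B) at 30 min, 8.46% (A) and 8.81% (B) at 60 min, 12.67% (A) and 11.64% (B) at 90 min, and 16.06% (A) and 15.72% (B) at 120 min. Fth1 was above Ftl1 in 10 of 10 libraries, by 1.16 ± 0.932 percentage points (exact permutation test, adjusted p = 0.00326). Tfrc and Ftl1 were not separated: Tfrc was lower in 6 libraries and higher in 4, by -0.53 ± 0.922 percentage points on average and within -2.24 to 0.49 (exact permutation test, adjusted p = 0.0996). At 120 min Tfrc was below Ftl1 in both libraries, with differences of -2.08 (A) and -2.24 (B) percentage points. The 90% intervals of Tfrc and Ftl1 did not overlap in these 2 of the 10 libraries. The difference between the contrasts of Tfrc with each chain is Fth1 minus Ftl1, which passed as given above. The copy Ftl1-ps1 had an NTR of 20.8% ± 0.679 at 120 min (SD, n = 2), above that of Ftl1 itself.

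Ireb2, which encodes IRP2, had the highest NTR of the 5. Its values were 2.22% (A) and 1.88% (B) at 15 min, 8.07% (A) and 7.37% (B) at 30 min, 30.27% (A) and 32.06% (B) at 60 min, 51.66% (A) and 46.06% (B) at 90 min, and 70.15% (A) and 72.89% (B) at 120 min. It was above each of the other 4 genes in 10 of 10 libraries, by 24.4 ± 22.3 percentage points over Tfrc and 17.7 ± 15.1 over Aco1 (exact permutation tests, adjusted p = 0.00326 for each of the 4 pairs). At 120 min it stood at percentile 82.4 of those genes, with 90% intervals of 65.72% to 74.35% in A and 68.84% to 76.75% in B.

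Aco1, which encodes IRP1, lay between Ireb2 and the other 3 genes from 60 min onward. Its NTR was 0.49% (A) and 0.10% (B) at 15 min, 2.96% (A) and 4.27% (B) at 30 min, 14% (A) and 14.1% (B) at 60 min, 22.53% (A) and 24.35% (B) at 90 min, and 32.54% (A) and 30.14% (B) at 120 min. The lowest value, 15 min replicate B, is a posterior maximum below its own 0.05 quantile of 0.11%, so it is poorly determined. At 15 min Aco1 was the lowest of the 5 in both replicates, whereas at 60, 90 and 120 min it was above Tfrc, Fth1 and Ftl1 in all 6 libraries. Over the 10 libraries the adjusted p was 0.0366 for Tfrc, 0.0391 for Fth1 and 0.0366 for Ftl1 against Aco1 (exact permutation tests). Each of these 3 calls was lost when any 1 of the 60, 90 or 120 min libraries was left out, with adjusted p between 0.0651 and 0.0781. On a scale of rates, log2 of -ln(1-NTR), Fth1 against Aco1 gave an adjusted p of 0.0955.

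**Figure D2:**
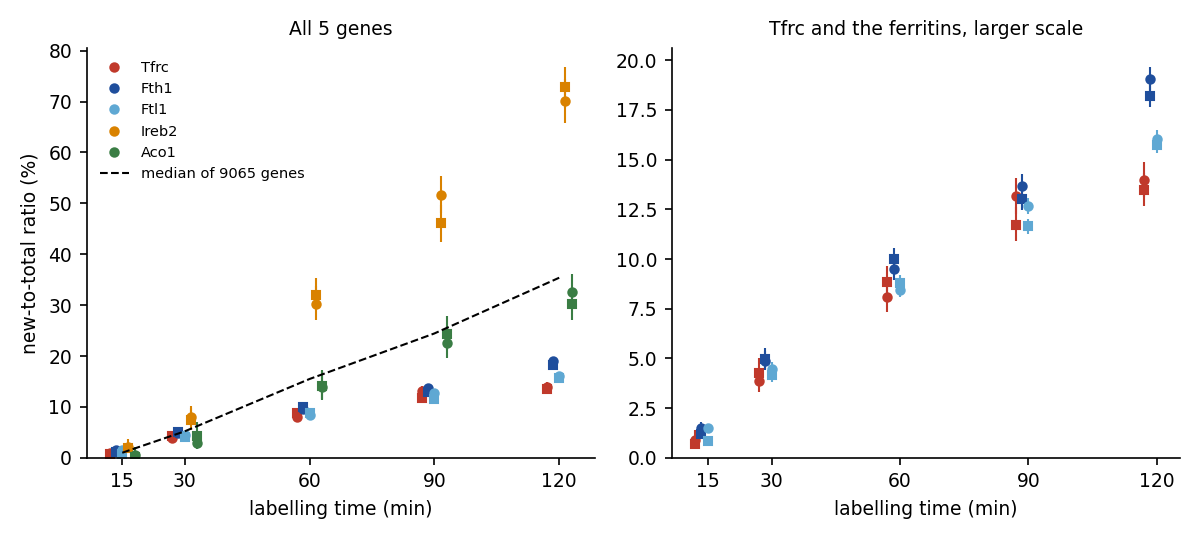
New-to-total ratio (%) of the 5 genes against labelling time (min), with circles for replicate A, squares for replicate B and vertical lines for the deposited 90% interval. Genes are offset sideways at each time, the right panel enlarges Tfrc, Fth1 and Ftl1, and the dashed line joins the medians of 9065 genes. Ireb2 is at 70.15% (A) and 72.89% (B) at 120 min, above the median of 35.4%, and Tfrc, Fth1 and Ftl1 stay below 20%.

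If the level of an mRNA is constant and label enters at once, an NTR gives a half-life as ln 2 times the labelling time over -ln(1-NTR). These values are called apparent, since the level of Ireb2 was not constant and the entry of label was not measured. Total Fth1 and Ftl1 RNA were not constant either, at 116.8% and 116.0% of their 15 min levels at 120 min. At 120 min the apparent half-life was 9.39 ± 0.261 h for Tfrc (SD, n = 2), 8.01 ± 0.132 h for Ftl1, 6.73 ± 0.247 h for Fth1, 3.69 ± 0.243 h for Aco1 and 1.10 ± 0.0598 h for Ireb2. The 5 genes kept this order at 120 min with the NTR corrected for an implied loss of labelled reads, with 6.65, 5.71, 4.83, 2.72 and 0.902 h. At 60 min the values were 7.85 ± 0.501 h for Tfrc and 7.68 ± 0.230 h for Ftl1, which differed by less than their SD. At 90 min Ftl1, with 8.04 ± 0.514 h, was above Tfrc, with 7.85 ± 0.682 h, again by less than their SD. The value of Ireb2 was 1.86 ± 0.0915 h at 60 min and 1.10 h at 120 min, a change of more than 1.5 times. A line through -ln(1-NTR) reached 0 at 1.10 min of labelling for Tfrc, 3.17 min for Ftl1 and 4.36 min for Fth1, but at 17.1 min for Aco1 and 21.3 min for Ireb2. At 15 min all 5 genes had longer apparent half-lives than at 120 min, among them Tfrc with 21.5 ± 3.94 h and Ftl1 with 16.2 ± 6.54 h.

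Multiplying CPM by the NTR gives the new RNA of each gene, and the rest is old. New Tfrc RNA was 5.11 (A) and 3.85 CPM (B) at 15 min, 21.39 (A) and 24.67 (B) at 30 min, 44.18 (A) and 48.13 (B) at 60 min, 69.13 (A) and 62.50 (B) at 90 min, and 73.56 (A) and 68.13 (B) at 120 min. The mean gain was 19.7 CPM from 60 to 90 min and 5.03 CPM from 90 to 120 min, where the replicates of both durations overlapped. New Fth1 RNA gained 65.4 and then 114 CPM in the same steps, and new Ftl1 RNA 126 and then 160 CPM. These gains are descriptions of 2 libraries per duration and were not tested.

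Old RNA at 120 min, as a share of old RNA at 15 min, was 98.7% for Ftl1, 96.4% for Fth1, 81.7% for Tfrc, 67.9% for Aco1 and 17.7% for Ireb2. By this share Tfrc fell more than both ferritin mRNAs, although Tfrc had the longest apparent half-life at 120 min. The apparent half-life uses the NTR alone, while this share also follows the total level, so the orders need not match. Total RNA at 120 min was 94.0% of its 15 min level for Tfrc, 116.8% for Fth1 and 116.0% for Ftl1. Why the total levels moved apart was not tested. Old Ireb2 RNA went from 97.1% of its 15 min level at 30 min to 65.4% at 60 min and 45.0% at 90 min. Old Ftl1 RNA was at 95.4% at 60 min, 96.0% at 90 min and 98.7% at 120 min. Old Fth1 RNA was at 93.5%, 93.9% and 96.4%. For both ferritin mRNAs the replicates of 60 and 120 min overlapped. CPM are relative to each library's total, so the share does not measure the survival of old RNA directly. New Ireb2 RNA reached 45.62 and 40.05 CPM at 90 min and 41.08 and 47.83 CPM at 120 min, so its replicates overlapped there as well. Per kb at 120 min, new Fth1 RNA was 11.1 ± 0.736-fold and new Ftl1 RNA 39.5 ± 2.42-fold the new Tfrc RNA (SD, n = 2). The Fth1 ratio uses its deposited length of 2062 bases, and would be higher with the 1494 bases of its protein-coding transcript. New Aco1 RNA was 0.820 ± 0.141-fold the new Ireb2 RNA per kb, while for total RNA the ratio of the same genes was 1.86 ± 0.171.

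**Figure D3:**
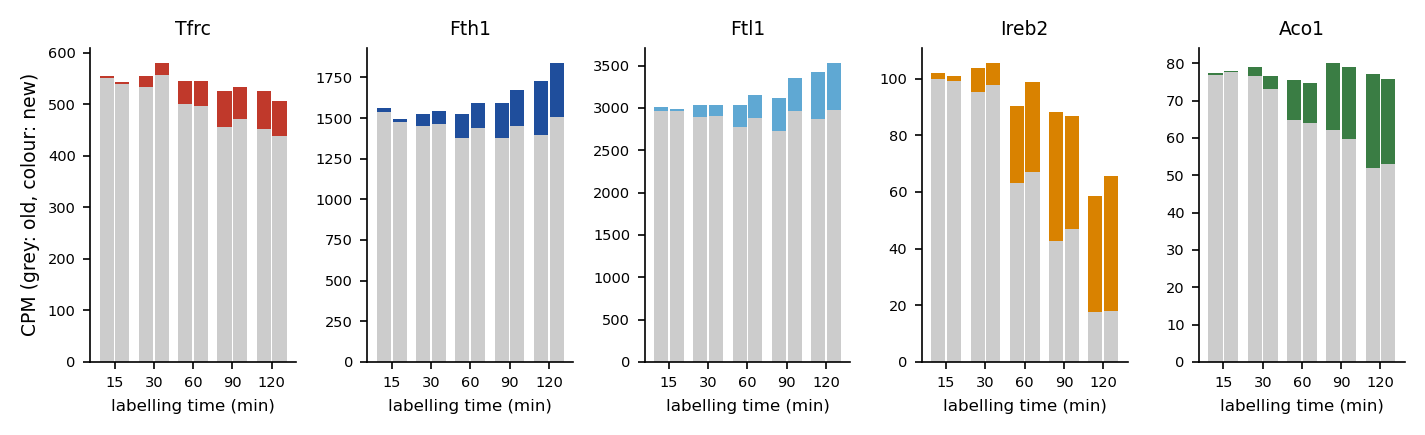
New and old RNA of each gene in CPM, stacked so that a bar's height is the total, for each labelled library (left bar replicate A, right bar replicate B). Old Ireb2 RNA is at 17.7% of its 15 min level at 120 min, while old Ftl1 and Fth1 RNA are at 98.7% and 96.4%. These are shares of CPM, which are relative to each library's total, and do not measure survival directly.

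The total level of the 2 ferritin mRNAs was higher, and that of Ireb2 lower, at 120 than at 15 min. Of all 11564 genes tested by edgeR, 19.3% changed in this comparison, 7.93% upward and 11.3% downward, against 3 of the 5 genes. With 5 genes the share carries little weight. The median log2 fold change of all genes was 0.01.

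Fth1 was at 1709 (A) and 1396 CPM (B) without 4sU, 1562 (A) and 1492 (B) at 15 min, 1525 (A) and 1543 (B) at 30 min, 1525 (A) and 1596 (B) at 60 min, 1593 (A) and 1671 (B) at 90 min, and 1727 (A) and 1841 (B) at 120 min. Both 120 min libraries were above every other library, although unlabelled replicate A came close to the lower. The log2 fold change, 120 against 15 min, was 0.22 ± 0.07 (SE; edgeR quasi-likelihood test, Benjamini-Hochberg adjusted p = 0.0253). The call was lost when any 1 of the 4 libraries was left out (0.17 to 0.27, adjusted p 0.0514 to 0.223), and when libraries were scaled by total reads alone (0.17, adjusted p = 0.0933). With only the 15 and 120 min libraries in the fit, the value was 0.22 and passed (edgeR adjusted p = 8.456e-06). Against the unlabelled group the log2 fold change was 0.20 ± 0.07, with an edgeR adjusted p of 0.0506, which is above the threshold. By that comparison 14.2% of all genes changed, 5.43% upward and 8.78% downward, and 1 of the 5 genes, Ireb2.

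Ftl1 was at 3355 (A) and 2943 CPM (B) without 4sU, 3006 (A) and 2991 (B) at 15 min, 3034 (A) and 3028 (B) at 30 min, 3030 (A) and 3157 (B) at 60 min, 3122 (A) and 3353 (B) at 90 min, and 3424 (A) and 3534 (B) at 120 min. As with Fth1, both 120 min libraries were the highest of the 12, next to unlabelled replicate A and 90 min replicate B. The log2 fold change was 0.21 ± 0.06 against 15 min (edgeR adjusted p = 0.0110) and 0.14 ± 0.06 against the unlabelled group (edgeR adjusted p = 0.0851). The former held without 120 min replicate A (adjusted p = 0.0403) and was lost without each of the other 3 libraries (adjusted p 0.0790 to 0.118) and with scaling by total reads (0.16, adjusted p = 0.0549). Summing Ftl1 with Ftl1-ps1 gave 0.22 ± 0.06 (adjusted p = 0.00874). With only the 15 and 120 min libraries in the fit, Ftl1 alone gave 0.21 and passed (edgeR adjusted p = 5.06e-06).

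Ireb2 was at 89.0 (A) and 112.7 CPM (B) without 4sU, 102.1 (A) and 101.1 (B) at 15 min, 103.7 (A) and 105.6 (B) at 30 min, 90.4 (A) and 98.9 (B) at 60 min, 88.3 (A) and 86.9 (B) at 90 min, and 58.6 (A) and 65.6 (B) at 120 min. Both 120 min libraries were below all 10 others. In bulk RNA, less RNA per cell and fewer cells with this RNA cannot be told apart. The log2 fold change was -0.71 ± 0.09 against 15 min (edgeR adjusted p = 4.561e-05) and -0.70 ± 0.09 against the unlabelled group (edgeR adjusted p = 6.916e-05). Total Ireb2 RNA at 120 min was 61.1% of its mean at 15 min. At 90 against 15 min the log2 fold change was -0.21 ± 0.09 and did not pass (edgeR adjusted p = 0.242). The fall at 120 min held in both comparisons with each library left out in turn, from -0.80 to -0.63 against 15 min and from -0.85 to -0.51 against the unlabelled group.

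Tfrc was at 453.1 (A) and 563.8 CPM (B) without 4sU, 555.4 (A) and 542.2 (B) at 15 min, 554.3 (A) and 580.5 (B) at 30 min, 545.4 (A) and 545.1 (B) at 60 min, 525.3 (A) and 532.9 (B) at 90 min, and 526.2 (A) and 505.4 (B) at 120 min. Both 120 min libraries were below both 15 min libraries, by a log2 fold change of -0.09 ± 0.07 that did not pass the test (edgeR adjusted p = 0.382). With only the 4 libraries of these groups in the fit, it was -0.10 and passed (adjusted p = 0.0387). Scaled by total reads alone it was -0.15, which did not pass (adjusted p = 0.141). Against the unlabelled group the value was 0.02 ± 0.07 (edgeR adjusted p = 0.887), and its direction depended on a single library: -0.13 without unlabelled replicate A (adjusted p = 0.0166) and 0.19 without unlabelled replicate B (adjusted p = 0.00289). Scaling by total reads also turned it, to -0.05, as did scaling up new RNA by the implied loss of labelled reads, to -0.12 (adjusted p = 0.472).

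Aco1 varied least of the 5, between 74.6 and 80.2 CPM in all 12 libraries. Its log2 fold change was -0.02 ± 0.06 against 15 min (edgeR adjusted p = 0.849) and -0.01 ± 0.06 against the unlabelled group (edgeR adjusted p = 0.9498). The latter had no stable sign, with 0.01 without unlabelled replicate B and 0.003 without 120 min replicate B. None of the 5 genes passed in any comparison of 30, 60 or 90 min with 15 min, or of 15, 30, 60 or 90 min with the unlabelled group, by edgeR. Of these 35 values, 3 had an unadjusted p under 0.05: Tfrc at 30 min against no 4sU (0.16 ± 0.07) and Ireb2 at 90 min in both comparisons. Few genes of any kind passed: none at 30 min, 0.0346% at 60 min and 1.06% at 90 min against 15 min. Against the unlabelled group it was none at 15 and 30 min, 0.0173% at 60 min and 1.39% at 90 min.

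**Figure D4:**
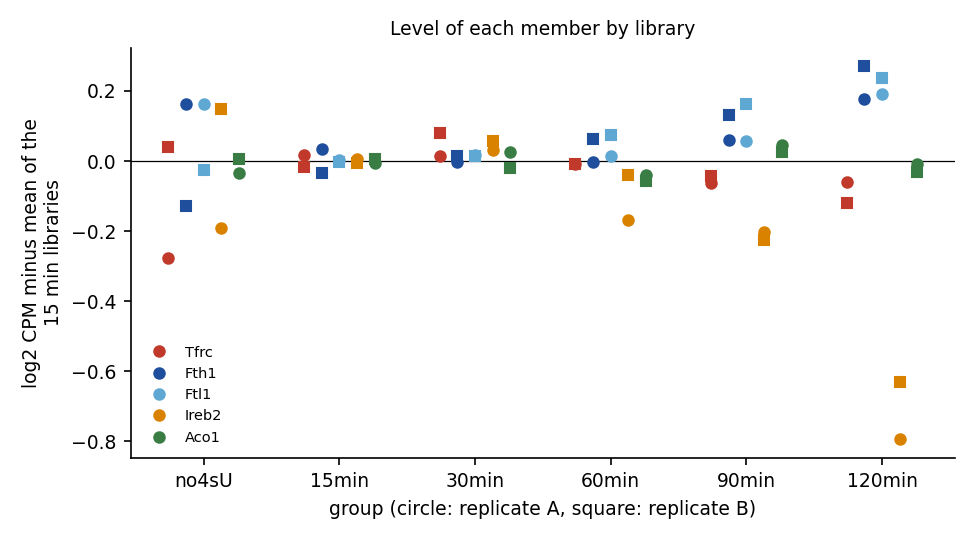
Total level of each gene per library, as log2 CPM relative to the mean of its 15 min libraries. Groups are equally spaced in order of labelling time, the unlabelled group first, with circles for replicate A and squares for replicate B. Ireb2 lies lowest at 120 min, Fth1 and Ftl1 lie above 0 there, and the unlabelled replicates are spread apart for Tfrc, Fth1, Ftl1 and Ireb2.

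An implied loss of labelled reads was computed per library over the genes that averaged 100 or more counts. It is the share of new reads whose restoration removes the correlation of NTR with log2 fold change. That fold change was taken against the mean of the unlabelled libraries, which stood apart from each other. The implied loss was 16.2% (A) and 13.1% (B) at 60 min, 20.9% (A) and 24.2% (B) at 90 min, and 30.5% (A) and 32.1% (B) at 120 min. Scaling new RNA up by these shares left the fall of Ireb2 in place, at -0.53 against 15 min (edgeR adjusted p = 0.00247) and -0.52 against the unlabelled group (edgeR adjusted p = 0.00293). The rises of the ferritin mRNAs against 15 min did not pass after this scaling, with 0.11 for Fth1 (adjusted p = 0.449) and 0.09 for Ftl1 (adjusted p = 0.487). The value of Tfrc against 15 min went from -0.09 to -0.23 ± 0.07 with this scaling, which did not pass (adjusted p = 0.0881). The loss is itself fitted to these libraries, so the scaled values are not independent of the comparison, and whether reads were lost was not tested.

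Of a list of 66 genes of iron handling, 62 were in the table and 56 were tested, the 5 genes included. From 15 to 120 min, 3 rose, 4 fell and 49 did not pass, with a median log2 fold change of -0.01, against 0.01 for all genes. Over all genes tested, 7.93% rose and 11.3% fell in this comparison. Steap2, a metalloreductase that reduces iron for uptake, was the 1 of 7 tested uptake genes that rose. It was at 139.5 and 140.7 CPM at 15 min and at 160.7 and 172.4 CPM at 120 min, a log2 fold change of 0.25 ± 0.07 (edgeR adjusted p = 0.0178). This call held without 120 min replicate A (0.30, adjusted p = 0.0388). It was lost without 120 min replicate B, 15 min replicate A or 15 min replicate B (0.19 to 0.26, adjusted p 0.0915 to 0.197). The other uptake genes tested, among them Steap3 and Slc11a2 (DMT1, which moves iron out of the endosome), gave 0.18 ± 0.07 (edgeR adjusted p = 0.0757) and -0.11 ± 0.07 (edgeR adjusted p = 0.305).

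Of the 5 tested storage genes, Fth1 and Ftl1 rose and 3 did not pass. Pcbp1 and Pcbp2, chaperones that deliver iron to ferritin, gave 0.15 ± 0.05 and 0.12 ± 0.05 (edgeR adjusted p = 0.0548 and 0.0856). Ncoa4, the receptor that carries ferritin to lysosomes for breakdown, gave 0.08 ± 0.07 (edgeR adjusted p = 0.438).

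Among the 3 sensing genes, Ireb2 and Fbxl5 fell and Aco1 did not pass. Fbxl5, which marks IRP2 protein for degradation, was at 41.8 and 48.6 CPM at 15 min and at 34.2 and 32.7 CPM at 120 min, below all 10 other libraries. Its log2 fold change was -0.44 ± 0.10 (edgeR adjusted p = 0.00378), and its NTR at 120 min was 81.1% ± 4.21 (SD, n = 2). Leaving out replicate B of either duration ended the call, with adjusted p of 0.0595 (120 min) and 0.0791 (15 min). Fbxl5 overlaps Bst1 on the opposite strand, and no source used here says whether counting was stranded. The NTRs at 120 min were 71.5% for Ireb2 and 81.1% for Fbxl5, beside 31.3% for Aco1.

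None of the 3 genes for proteins that promote decay of Tfrc mRNA passed edgeR's test (0 at an unadjusted p under 0.05, 0 by DESeq2): Zc3h12a (Regnase-1), Rc3h1 and Rc3h2 (Roquin-1 and -2). Their own mRNAs were mostly new at 120 min, with NTRs of 100%, 86.9% ± 2.84 and 81.0% ± 3.44 (SD, n = 2). Zc3h12a averaged only 127.2 counts, and its 100% is the upper limit of the ratio, so its value is uncertain. Their log2 fold changes were -0.14 ± 0.13, -0.17 ± 0.09 and -0.19 ± 0.09 (edgeR adjusted p = 0.470, 0.178 and 0.161). The mRNA they act on had an NTR of 13.7%.

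Of 18 tested mitochondrial genes, 2 fell and 16 did not pass. Slc25a37 (mitoferrin-1), which imports iron into mitochondria, was among those that fell and gave -0.17 ± 0.06 (edgeR adjusted p = 0.0365) at an NTR of 64.8%, a call that was lost when any 1 of the 4 libraries was left out (adjusted p 0.0950 to 0.222). Slc25a37 overlaps Gm27223, a gene of the table on the opposite strand, so the limit on stranded counting given for Fbxl5 holds here too. None of 10 haem genes, 3 export genes, 5 genes of cytosolic iron-sulphur assembly or 2 further mRNAs known to carry an IRE passed edgeR's test, or DESeq2's where it gave an adjusted p. At an unadjusted p under 0.05, edgeR had 3, 1, 0 and 1 of them. Hmox1, the haem oxygenase that frees iron from haem, gave -0.12 ± 0.05 (edgeR adjusted p = 0.119) at an NTR of 78.8%. By DESeq2, 3 of the 56 rose and 2 fell.

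The counts over the list depended on single libraries. Against 15 min, 7 passed with all libraries and 4, 1, 2 and 1 without 120 min replicate A, 120 min replicate B, 15 min replicate A and 15 min replicate B. Against the unlabelled group, where 14.2% of all genes were called (5.43% higher and 8.78% lower), 1 list gene rose (Steap2) and 6 fell (among them Ireb2, Fbxl5, Slc25a37, Slc25a28 and Cdc14a), and the list's median was 0.02. That count of 7 became 21 without unlabelled replicate A, 9 without unlabelled replicate B, 3 without 120 min replicate A and 2 without 120 min replicate B. The comparisons with 15 min and with no 4sU share the 120 min libraries.

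**Figure D5:**
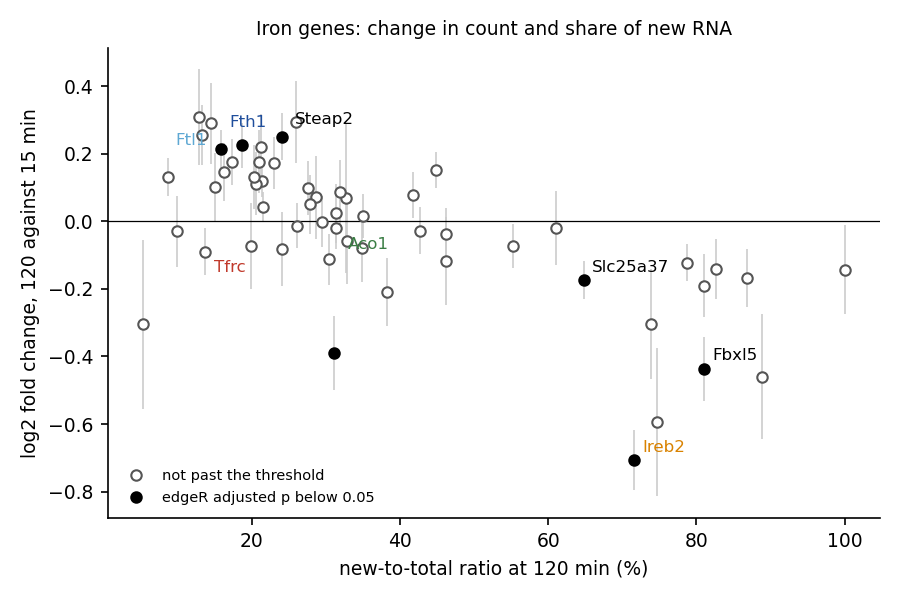
Log2 fold change of total RNA, 120 against 15 min, with its SE (vertical lines), against the new-to-total ratio at 120 min (%), for the 56 tested genes of the iron list. Filled points passed edgeR's test at an adjusted p below 0.05, and those named in the text are labelled. Ireb2, Fbxl5 and Slc25a37 lie below 0 and Fth1, Ftl1 and Steap2 above it, with Tfrc among the genes of low NTR that did not pass.

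The genes most like Tfrc in NTR over the 10 labelled libraries were sought among the 2699 other genes that averaged 1000 or more counts. By root mean square difference they were Lox (0.721 percentage points), an enzyme that cross-links collagen, Efr3a (0.850) and Psat1 (0.888), an enzyme of serine synthesis. For Fth1 they were Pcdhgc5 (0.549), Tm4sf1 (0.560) and Pcdhgc4 (0.570). Pcdhgc5 and Pcdhgc4 share exons with other genes of the protocadherin gamma cluster, and Lox overlaps an antisense gene of the table, so their values are uncertain. At 120 min the 3 genes nearest Tfrc had NTRs between 13.53% and 14.72%.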

How the data were processed

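SLAM-seq was made from 12 libraries of NIH-3T3 cells in 6 groups of 2, assigned by sample title. The submitters' processing notes name cutadapt, Bowtie2 2.3.0 and STAR 2.7.10b, without their role. Build, annotation, counting tool and strand use: not given in the sources used here. Estimated counts per gene were deposited, of which 20.4% were not whole (tolerance 1e-06). They were rounded before testing. The authors deposited the NTR as a fraction per labelled library, per the file headers as a posterior maximum (used here), a mean and a 90% interval from 0.05 to 0.95. The deposited alpha and beta, each a score without fixed range, were not used. The deposited gene length equalled the longest GENCODE M21 transcript for 99.0% of the genes found there.

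Counts were fitted with edgeR 4.0.16 (R 4.3.3) over all 12 libraries, after filterByExpr (11564 genes) and TMM scaling (factors 0.970 to 1.02), with Benjamini-Hochberg adjustment at 0.05 over all tested genes. CPM used TMM library sizes. DESeq2 1.42.0 was an alternative. NTR differences between genes were tested within libraries by exact sign flips (numpy 2.4.6), since both genes of a pair share a library's labelling. The implied loss of labelled reads was computed with scipy 1.17.1. The fit was tested on simulated data. Alternatives covered normalization, tool, filter, samples in the fit, replicate block, each library left out, lost labelled reads, and NTR estimate, scale and duration. The sum of Ftl1 with Ftl1-ps1, the protein-coding length of Fth1, and the list's values with a library left out were chosen after seeing the data. Replicate letters did not pair samples: over 15 pairs of groups, deviations of the same letter correlated between -0.042 and 0.068. A read with many conversions may fail to align, which would lower count and NTR together. U made up 31.4% of Tfrc and 31.3% of Ireb2 mRNA, against 23.8% of Fth1, 23.5% of Aco1 and 21.6% of Ftl1 mRNA. The implied loss was a single share per library for all genes. Whether U content affected the NTR differences was not tested.

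The 5 genes and the lists were chosen with earlier results of these data known. Beyond the 5, the rule named up to 6 list genes per direction past the threshold at 120 against 15 min, 3 nearest NTR profiles for Tfrc and for Fth1, and rows whose symbol starts with Fth or Ftl. Other list genes were named for their role, after their values were seen. Ndor1, whose symbol is on several rows, was left out. Of the list genes past the threshold, 1 is counted but not reported here by name.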

Additional observations from a re-analysis of the deposited data

How the results depend on the processing

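Of 300 alternative values, 222 stayed the same, 34 moved, 30 lost a call, 8 gained one and 6 reversed. Fold changes and NTR differences stayed the same if they kept their direction and their side of the threshold. Half-lives and levels did so if they moved by less than the spread, and counts of genes if within a fixed fold of the main value. The fall of Ireb2 passed in every alternative run, in both comparisons. Genes called at 120 against 15 min were 2228 (917 higher, 1311 lower; 3862 before adjustment of p), and 1453 in DESeq2, 3818 with only the 2 groups fitted, 249 with lost labelled reads scaled up, and 657 to 1037 with a library left out. Against no 4sU they were 1643 (628 higher, 1015 lower), and 1059, 171, 187 and 452 to 3533. Scaling by total reads gave 426 higher and 1867 lower against 15 min, and 203 and 1684 against no 4sU. With the replicate block, 2315 and 1737 genes passed and no call on the 5 genes changed. For log2 fold changes against 15 min, Tfrc was -0.0952 with 2 groups fitted; Fth1 was 0.167 by total reads and 0.114 with lost reads scaled up; Ftl1 was 0.157 and 0.0869. With a library left out, the ranges were -0.114 to -0.0650 for Tfrc, 0.174 to 0.274 for Fth1, 0.187 to 0.242 for Ftl1, -0.798 to -0.625 for Ireb2 and -0.0273 to -0.0124 for Aco1. Against no 4sU, Tfrc reversed by total reads (-0.0481), with lost reads scaled up (-0.123), without unlabelled replicate A (-0.130) and without 120 min replicate A (-0.0032), in a range of -0.130 to 0.186. Aco1 reversed without unlabelled replicate B (0.0129) and without 120 min replicate B (0.0030), in a range of -0.0278 to 0.0129. Fth1 passed against no 4sU with DESeq2's size factors in edgeR (0.206), by DESeq2 (0.206), with no filter on low counts (0.206) and without unlabelled replicate A (0.353), in a range of 0.0619 to 0.353. Ftl1 passed with no filter (0.149) and without unlabelled replicate A (0.241), in a range of 0.0519 to 0.241. Ireb2 ranged from -0.854 to -0.514. NTR differences with a library left out ranged, in percentage points, from -1.83 to -1.32 (Tfrc minus Fth1), -0.644 to -0.341 (Tfrc minus Ftl1), -26.9 to -20.5 (Tfrc minus Ireb2), -7.48 to -5.32 (Tfrc minus Aco1), 0.959 to 1.29 (Fth1 minus Ftl1), -25.1 to -19.1 (Fth1 minus Ireb2), -5.71 to -4.003 (Fth1 minus Aco1), -26.4 to -20.1 (Ftl1 minus Ireb2), -6.96 to -4.96 (Ftl1 minus Aco1) and 14.9 to 19.5 (Ireb2 minus Aco1). On the rate scale Fth1 minus Aco1 was -0.462 and lost its call. Apparent half-lives at 60 min were 7.85 h (Tfrc), 7.68 h (Ftl1), 1.86 h (Ireb2) and 4.58 h (Aco1). From a slope with a free intercept they were 8.54, 7.70, 1.00 and 3.18 h, and corrected for lost reads 6.65, 5.71, 0.902 and 2.72 h, with 4.83 h for Fth1. Fth1 had a mean of 1070 CPM per kb on its protein-coding length. List genes passing with a library left out were 1 to 4 against 15 min and 2 to 21 against no 4sU. The causes of these shifts were not tested. Groups of 2 libraries limit the precision, and Ireb2 and Aco1, with counts near 1000 per library, have the widest NTR intervals of the 5.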
